A study of Mus musculus with 34 samples.

Results

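The genes described here encode proteins of ribosome biogenesis and of the nucleolus, together with 3 enzymes that make polyamines and pyrimidines. A list of 40 gene symbols was drawn up with earlier results of these data known. Counts of members set against all genes are therefore descriptions and no independent test. A gene was measured where a probe set of the array was annotated to its symbol alone. Of several probe sets for a gene, the one with the highest mean signal over all arrays was taken. This left 38 of the 40 genes, on 44 probe sets, among 22180 genes measured in all. The probe sets of Fbl and Tsr1 were shared with other genes, and these genes are not analysed here.

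Ribosomes are built in the nucleolus. RNA polymerase I transcribes the ribosomal RNA precursor, small nucleolar ribonucleoproteins (snoRNPs) guide its chemical modification, and large assemblies of processing factors cut and fold it while the small and the large ribosomal subunits take shape. Many of these genes are known targets of the transcription factor Myc, and cells that enlarge and divide need many new ribosomes. The 38 genes were grouped by role into 3 subunits of RNA polymerase I, 4 snoRNP proteins or chaperones, 14 factors of the small subunit, 9 factors of the large subunit, 5 other nucleolar proteins and the 3 enzymes.

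Messenger RNA was measured on 34 arrays of dendritic cells (DCs), antigen-presenting cells of the immune system, sorted from the spleens of C57BL/6 mice. Sorted CD8+ DCs and CD8- DCs of Mst1/2-KO mice (genotype Mst1/2-/-) and of WT mice were hybridised on 4 arrays for each subset and genotype. Total DCs of Mst1/2-KO mice had 3 arrays and those of WT mice 4. In experiment 1, DCs stimulated with anti-CD40 (an antibody to CD40, the receptor through which T cells activate DCs) came from Rag1-/- p38-/- mice (3 arrays) and from Rag1-/- mice (4 arrays). In experiment 2, Rag1-KO DCs stimulated with anti-CD40 had 2 arrays, non-stimulated Rag1-KO DCs 1 array and WT DCs stimulated with anti-CD40 1 array. Mst1 and Mst2 are the kinases of the Hippo pathway encoded by Stk4 and Stk3, p38 is a stress-activated kinase, and Rag1-KO mice lack mature T and B cells. The labels give no age, no sex, no Cre driver and no statement that replicates were separate mice, so the p-values measure the spread between these samples, which may be technical. All values below are log2 signals or differences of log2 signals, and a member or gene was called where limma's moderated test gave a Benjamini-Hochberg adjusted p under 0.05 over all 22180 genes.

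Stk4 was lower in Mst1/2-KO cells in CD8+ DCs (log2 difference of -0.86), in CD8- DCs (-0.77) and in total DCs (-1.09), each called by limma. Stk3 is not among the annotated probe sets. Cd8a averaged 12.10 in Mst1/2-KO and 12.11 in WT CD8+ DCs, against 7.37 in Mst1/2-KO and 6.69 in WT CD8- DCs. All 9 measured CD8+ DC markers were higher, and 10 of 10 CD8- DC markers lower, in CD8+ than in CD8- DCs of WT mice. Each probe set carries a constant of its own in each of the 4 experiments (the sorted subsets, total DCs, experiment 1 and experiment 2), so levels were compared only within an experiment. For each of the 41155 probe sets, the mean over the arrays of experiment 1 equals the mean over the 16 sorted arrays (tolerance 1e-05). All 38 members had mean signals well inside the scale, with Npm1 (11.27), Ncl (10.20) and Ddx21 (9.56) at the top and Cad (5.40), Rrp9 (5.43) and Grwd1 (5.49) at the bottom in the sorted arrays. These are signals of different probe sets and do not rank the genes' messenger RNA.

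Promoter sequences are shown because the letters CACGTG, the E-box bound by Myc and by other factors of its class, are a known feature of such genes. The part of these letters in the members' differences was not tested. RefSeq (GRCm38.p6) gave a window reaching from 250 bases before to 50 bases after the annotated start for 34 of the 40 listed genes, 37 windows in all. Srm, Npm1, Fbl, Bop1, Rrp12 and Rrs1 were not matched. CACGTG reads the same on both strands. It stood in 9 of the 37 windows (24.3%), against 2349 of 32851 windows of all genes (7.15%). Counted by gene, 9 of 34 listed genes (26.5%) and 2187 of 27025 genes (8.09%) had it. The 9 genes were Nop2, Grwd1, Utp4, Ltv1, Utp20, Pes1, Mybbp1a, Tsr1 and Wdr43. The windows of the listed genes also had a median GC content of 59.7%, against 52.7% in all windows, and a median of 22 CG pairs, against 7. CACGTG itself holds a CG pair, and the part of the CG content in its share was not tested. Among the 19 genes with a window that were called in any comparison below, 6 held the letters (31.6%), and among the 14 measured genes with a window that were not called 2 did (14.3%). These shares rest on few genes, pool calls between genotypes and between subsets, and were not compared by a test. Of the genes called between genotypes, Utp20, Nop2 and Mybbp1a held the letters. Dkc1, Nop58, Heatr1, Ppan, Nop16, Polr1b, Cad and Odc1 lacked them, and Srm, Rrp12 and Rrs1 had no window. Tsr1, which also held the letters, was not measured. The match describes the sequence and shows no binding. The windows of 4 genes that were called between genotypes or subsets follow, with CACGTG in capitals. They were chosen for holding these letters, which most called genes with a window lack, and Pes1 was called between subsets only. The window of Dkc1, a called gene without these letters, is given for contrast.
Utp20, chr10:88826765-88827064, - strand: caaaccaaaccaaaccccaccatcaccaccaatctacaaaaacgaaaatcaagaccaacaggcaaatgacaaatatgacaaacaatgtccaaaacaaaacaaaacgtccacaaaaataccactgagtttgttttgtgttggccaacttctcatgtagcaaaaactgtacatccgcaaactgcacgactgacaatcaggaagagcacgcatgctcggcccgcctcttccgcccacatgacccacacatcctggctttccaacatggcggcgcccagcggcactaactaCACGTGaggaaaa
Nop2, chr6:125131633-125131932, + strand: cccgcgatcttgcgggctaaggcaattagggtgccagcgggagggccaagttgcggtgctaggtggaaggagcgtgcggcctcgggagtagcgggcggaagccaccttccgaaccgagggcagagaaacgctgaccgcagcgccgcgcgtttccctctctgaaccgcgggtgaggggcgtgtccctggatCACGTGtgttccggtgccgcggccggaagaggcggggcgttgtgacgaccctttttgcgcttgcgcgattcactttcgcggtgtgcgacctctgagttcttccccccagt
Mybbp1a, chr11:72441077-72441376, + strand: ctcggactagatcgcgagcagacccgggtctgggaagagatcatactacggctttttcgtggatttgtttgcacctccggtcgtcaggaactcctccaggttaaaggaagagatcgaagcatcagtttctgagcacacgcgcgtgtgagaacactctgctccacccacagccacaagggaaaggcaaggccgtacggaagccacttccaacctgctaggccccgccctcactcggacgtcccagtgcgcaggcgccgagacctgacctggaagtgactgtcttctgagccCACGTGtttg
Pes1, chr11:3963725-3964024, + strand: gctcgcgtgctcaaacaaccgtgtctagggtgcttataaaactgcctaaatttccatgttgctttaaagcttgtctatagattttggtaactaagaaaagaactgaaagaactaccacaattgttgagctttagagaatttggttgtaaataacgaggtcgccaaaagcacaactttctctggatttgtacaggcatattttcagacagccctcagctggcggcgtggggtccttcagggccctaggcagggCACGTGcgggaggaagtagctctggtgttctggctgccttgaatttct
Dkc1, chrX:75095604-75095903, + strand: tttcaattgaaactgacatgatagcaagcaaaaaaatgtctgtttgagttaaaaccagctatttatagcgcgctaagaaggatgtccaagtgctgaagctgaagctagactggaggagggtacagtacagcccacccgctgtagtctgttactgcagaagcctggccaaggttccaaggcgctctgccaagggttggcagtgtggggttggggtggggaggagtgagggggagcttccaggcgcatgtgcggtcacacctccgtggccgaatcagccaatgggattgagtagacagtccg
In Utp20, Mybbp1a and Pes1 the letters lie past the annotated start, and in Nop2 they lie before it.

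**Figure D1:**
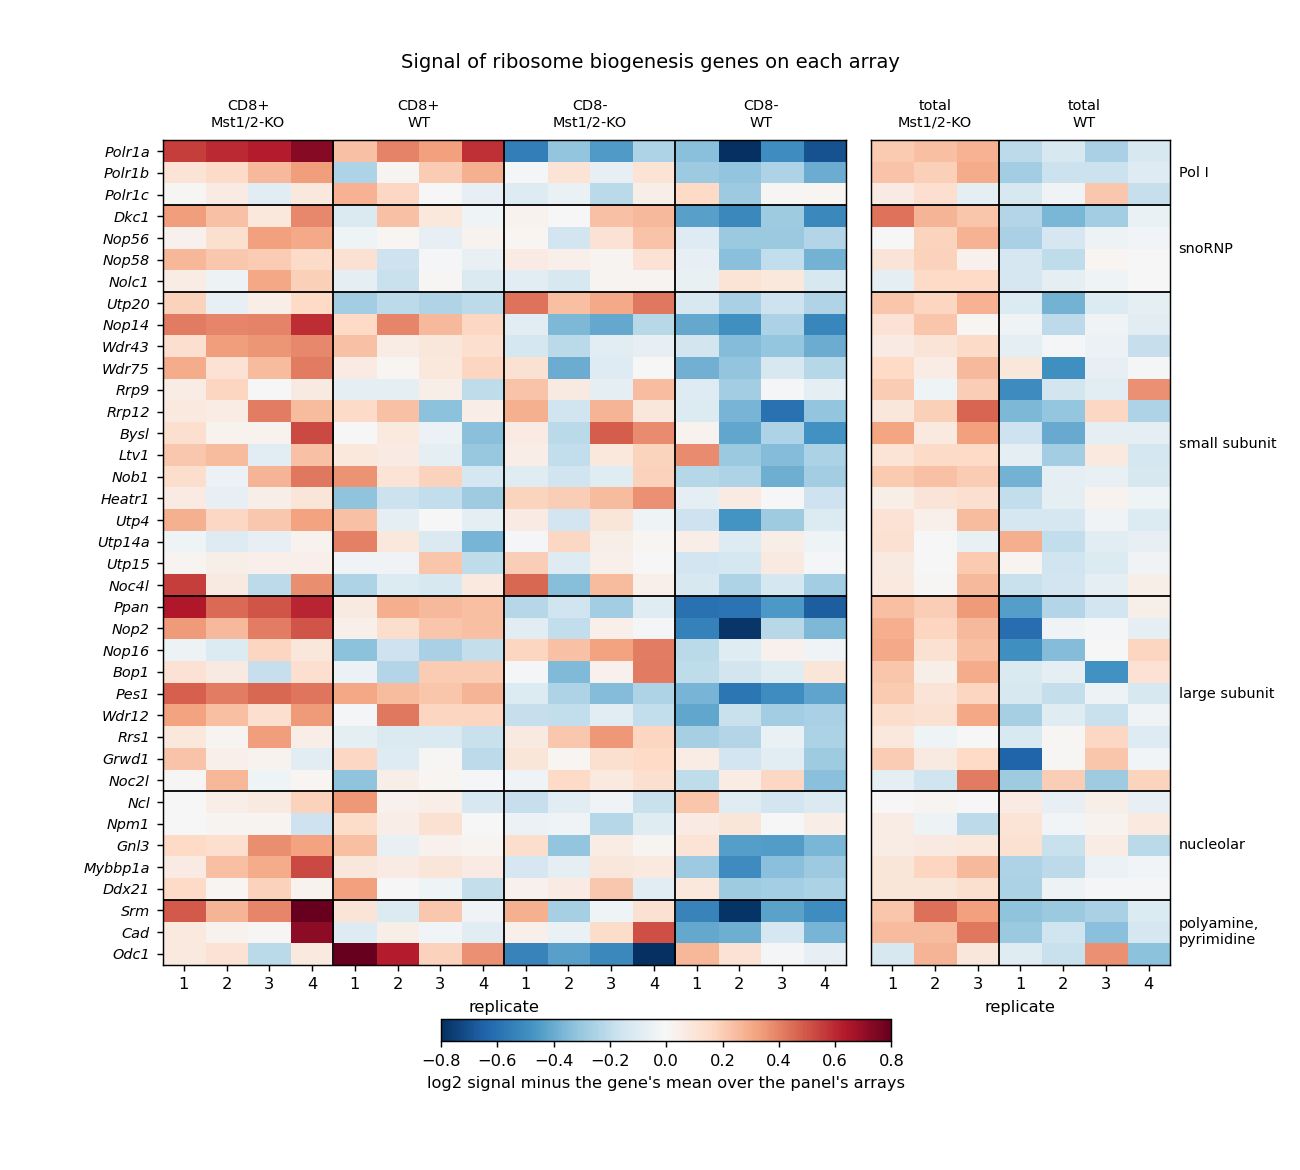
Log2 signal of the 38 members (rows, grouped by role) on the 16 sorted-subset arrays and the 7 total DC arrays (columns), each shown as the difference from the gene's mean over the arrays of its panel. Most rows are higher on the Mst1/2-KO arrays than on the WT arrays of the same kind of cell, and Odc1 is lower on the Mst1/2-KO arrays of both sorted subsets.

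In CD8- DCs, Mst1/2-KO against WT, 13 of the 38 members were called higher and 1 lower, where 3.9% of all genes were called higher and 2.79% lower. The difference was above 0 for 33 of the 38 members, against 50.4% of all genes. The median difference of the members was 0.24, and that of all genes was 0.0016. An unadjusted p under 0.05 was reached by 24 members (18.1% of all genes). In 14 members every Mst1/2-KO array lay above every WT array (6.52% of all genes), and in 2, Odc1 and Npm1, below (5.46%). The members called higher came from each of the 6 roles, and the member called lower was Odc1. In these bulk samples, fewer cells of a type and less RNA per cell cannot be told apart.

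Among the snoRNP proteins, Dkc1 encodes dyskerin, the enzyme that converts uridine to pseudouridine in ribosomal RNA. Dkc1 had 6.73, 6.70, 6.94 and 6.96 in Mst1/2-KO CD8- DCs, against 6.27, 6.19, 6.42 and 6.19 in WT CD8- DCs. The lowest Mst1/2-KO array lay above the highest WT array. The difference was 0.56 ± 0.10 (SE, limma, adjusted p = 0.00159), or 1.48-fold. Nop58, a core protein of the snoRNPs that guide methylation, was called higher with a difference of 0.31. Its partner Nop56 differed by 0.28 and was not called (adjusted p = 0.0683). Nolc1, a nucleolar chaperone of snoRNPs, differed by -0.04 and was not called.

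Utp20 belongs to the small subunit processome, the particle in which the small subunit's RNA is first processed. It had 6.61, 6.42, 6.48 and 6.60 in Mst1/2-KO CD8- DCs, against 6.05, 5.92, 6.01 and 5.94 in WT CD8- DCs. The genotypes did not overlap, and the difference was 0.54 ± 0.07 (SE, limma, adjusted p = 0.00021), the smallest p among the members. Of the 14 small subunit factors, all 14 differed upwards and 3 were called, namely Utp20, Rrp12 and Heatr1. Rrp12, a factor of pre-ribosome maturation and export, had 6.17, 5.73, 6.16 and 5.98 in Mst1/2-KO CD8- DCs, against 5.78, 5.52, 5.29 and 5.57 in WT CD8- DCs. Its arrays overlapped, and the difference was 0.47 ± 0.13 (SE, adjusted p = 0.0446). Heatr1, the mammalian counterpart of a yeast processome protein, differed by 0.29 and its genotypes did not overlap. Bysl, which acts late in small subunit maturation, differed by 0.46 and was not called (adjusted p = 0.0986).

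Of the 9 large subunit factors, all 9 differed upwards and 4 were called. Nop2, a methyltransferase of the large subunit's RNA, had 6.84, 6.73, 6.97 and 6.92 in Mst1/2-KO CD8- DCs, against 6.39, 6.15, 6.71 and 6.57 in WT CD8- DCs, a difference of 0.41. Rrs1, which helps to place the smallest ribosomal RNA in the large subunit, had 6.33, 6.47, 6.60 and 6.43 in Mst1/2-KO CD8- DCs, against 5.99, 6.02, 6.20 and 6.00 in WT CD8- DCs, a difference of 0.40. Ppan, whose yeast counterpart is needed for the large subunit, had 6.85, 6.92, 6.80 and 6.98 in Mst1/2-KO CD8- DCs, against 6.48, 6.49, 6.62 and 6.42 in WT CD8- DCs. In all 3 genes every Mst1/2-KO array lay above every WT array. Nop16, a nucleolar protein of large subunit assembly, was called with a difference of 0.37. Pes1, Bop1 and Wdr12 form the PeBoW complex, which is needed to process the large subunit's RNA. None of the 3 was called, and Pes1 came nearest (0.23, adjusted p = 0.0571).

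The second probe set of Ppan differed by 0.35 ± 0.19 in CD8- DCs and was not called (adjusted p = 0.369), and the second one of Rrs1 differed by 0.09 ± 0.11 (adjusted p = 0.791). Polr1b, the second largest subunit of RNA polymerase I, was called higher with a difference of 0.35. Polr1a, the largest subunit, differed by 0.23 and was not called, with arrays of the genotypes overlapping at 7.23, 7.47, 7.33 and 7.54 in Mst1/2-KO against 7.45, 6.82, 7.29 and 7.09 in WT CD8- DCs. Polr1c, which RNA polymerases I and III share, differed by -0.06. Of the other nucleolar proteins, Mybbp1a, a Myb-binding protein that also takes part in ribosomal RNA processing, was called higher with 0.35. Npm1 and Ncl, the abundant nucleolar proteins nucleophosmin and nucleolin, differed downwards without a call, Npm1 with all Mst1/2-KO arrays (11.22, 11.24, 11.04 and 11.17) below all WT arrays (11.33, 11.36, 11.26 and 11.32). The second probe set of Npm1 differed upwards, by 0.04 ± 0.08 (SE, adjusted p = 0.876).

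The enzymes moved in both directions. Srm, spermidine synthase, had 7.57, 7.02, 7.25 and 7.41 in Mst1/2-KO CD8- DCs, against 6.75, 6.50, 6.86 and 6.79 in WT CD8- DCs, without overlap. Its difference of 0.59 ± 0.13 (SE, limma, adjusted p = 0.00952), or 1.50-fold, was the largest among the members called higher. Cad, which catalyses the opening steps of pyrimidine synthesis, had 5.44, 5.35, 5.55 and 5.92 in Mst1/2-KO CD8- DCs, against 4.99, 5.01, 5.27 and 5.03 in WT CD8- DCs. The difference of Cad was 0.49 ± 0.14 (SE, adjusted p = 0.0498), just under the threshold. Odc1, ornithine decarboxylase, starts the same polyamine pathway in which Srm acts. It had 7.87, 7.97, 7.89 and 7.57 in Mst1/2-KO CD8- DCs, against 8.67, 8.52, 8.39 and 8.34 in WT CD8- DCs. The difference of Odc1 was -0.66 ± 0.13 (SE, limma, adjusted p = 0.00392), and every Mst1/2-KO array lay below every WT array.

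The number of calls in CD8- DCs depended on which array was left out. Leaving out 1 array at a time gave 7 to 15 called members, with 7 without Mst1/2-KO replicate 4, 8 without WT replicate 2 and 9 without Mst1/2-KO replicate 1 or WT replicate 4. Dkc1, Utp20, Srm, Odc1, Ppan, Rrs1 and Nop16 were called in all 8 of these fits. Cad and Rrp12 were called in 2 of the 8 fits each, Cad without WT replicate 3 or Mst1/2-KO replicate 2 and Rrp12 without WT replicate 1 or Mst1/2-KO replicate 2. Nop2 was lost without WT replicates 1 or 2 or Mst1/2-KO replicates 1, 3 or 4, Nop58 without WT replicates 2 or 4 or Mst1/2-KO replicates 1 or 4, Mybbp1a without WT replicates 2 or 3 or Mst1/2-KO replicates 3 or 4, and Heatr1 without replicate 4 of either genotype. Polr1b was called in none of the 8.

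In CD8+ DCs, Mst1/2-KO against WT, 2 members were called higher and 0 lower, where 0.234% of all genes were called higher and 0.654% lower. The difference was again above 0 for 33 of 38 members (51.5% of all genes), with a median of 0.20 for the members and 0.0046 for all genes. An unadjusted p under 0.05 was reached by 16 members (10.6% of all genes). Ppan had 7.72, 7.53, 7.58 and 7.69 in Mst1/2-KO CD8+ DCs, against 7.15, 7.37, 7.34 and 7.32 in WT CD8+ DCs. Its difference was 0.34 ± 0.075 (SE, limma, adjusted p = 0.0432). Utp20 had 6.36, 6.11, 6.23 and 6.34 in Mst1/2-KO CD8+ DCs, against 5.90, 5.97, 5.94 and 5.97 in WT CD8+ DCs. Its difference was 0.32 ± 0.07 (SE, limma, adjusted p = 0.0492). Both genes had every Mst1/2-KO array above every WT array, as had 10 members in all (3.3% of all genes), and Odc1 had every Mst1/2-KO array below every WT array (3.03% of all genes).

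Both calls in CD8+ DCs stood close to the threshold. Both were kept without Mst1/2-KO replicate 2, and both were lost without any of the other 7 arrays. Without WT replicate 3, Odc1 was called lower in their place. The other probe set of Ppan differed by 0.17 ± 0.19 in CD8+ DCs (adjusted p = 0.83). Srm had 7.78, 7.56, 7.68 and 8.09 in Mst1/2-KO CD8+ DCs, against 7.39, 7.18, 7.50 and 7.26 in WT CD8+ DCs, a difference of 0.45 that was not called (adjusted p = 0.137). Odc1 had 8.48, 8.52, 8.19 and 8.48 in Mst1/2-KO CD8+ DCs, against 9.20, 9.03, 8.59 and 8.77 in WT CD8+ DCs. Its genotypes did not overlap, and the difference of -0.49 was not called (adjusted p = 0.0896). All 4 snoRNP members differed upwards by 0.21 to 0.23, among them Dkc1 with 0.22, and none was called. All 9 large subunit factors differed upwards, by 0.0026 to 0.34.

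**Figure D2:**
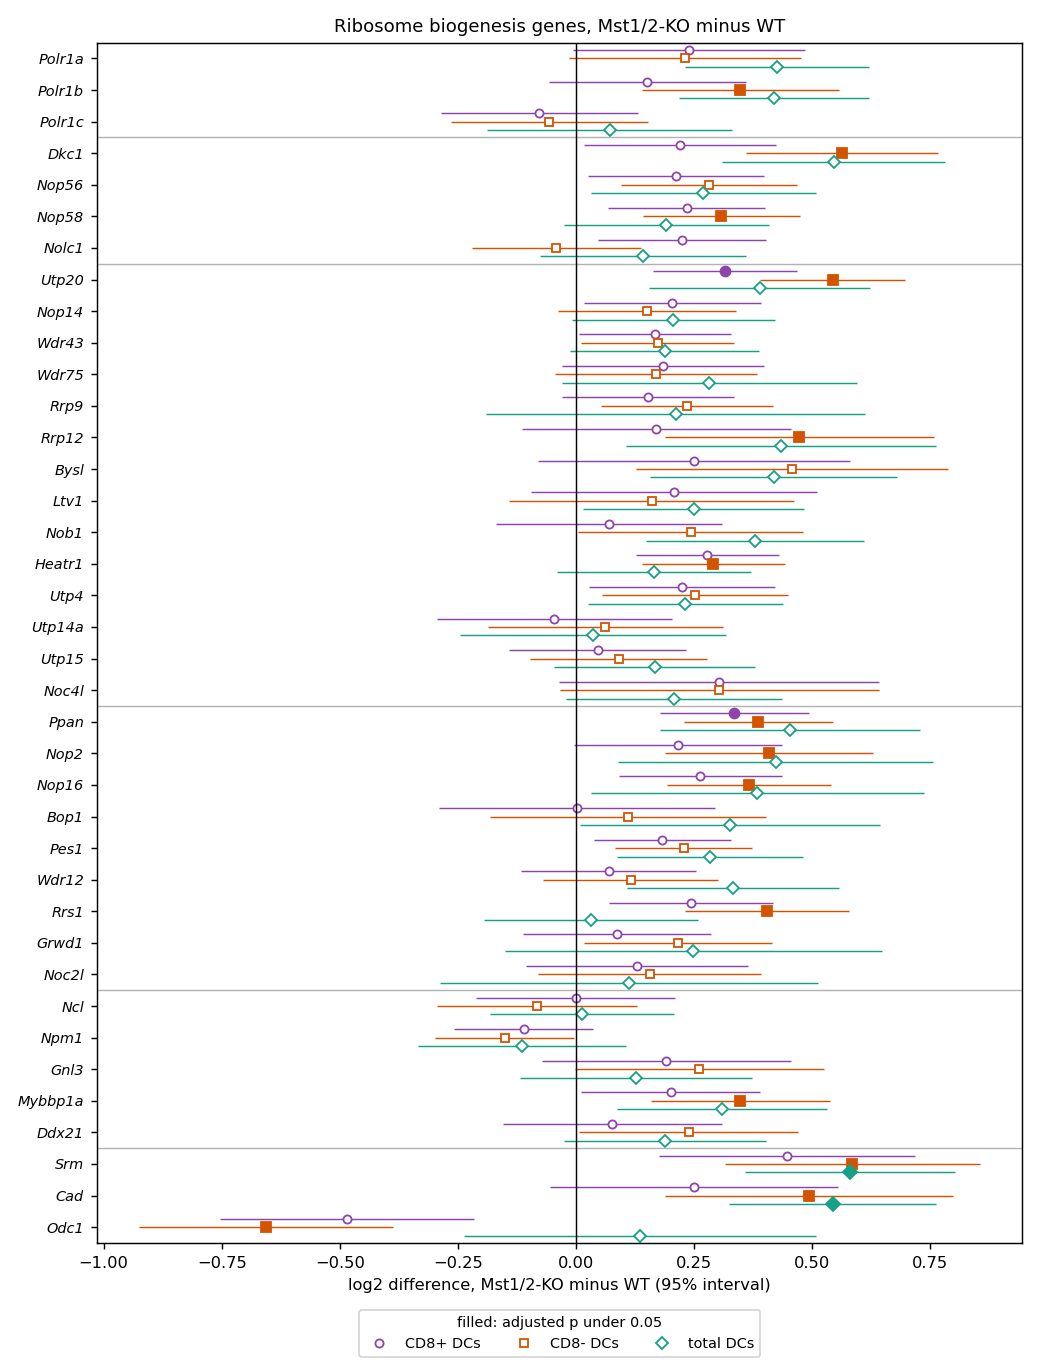
Difference of log2 signal, Mst1/2-KO minus WT, for each member in CD8+ DCs, CD8- DCs and total DCs, with 95% intervals from limma (filled points have an adjusted p under 0.05). Most points lie right of 0 in all 3 kinds of cell, and Odc1 lies left of 0 in both sorted subsets and not in total DCs.

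The genotype effects in CD8+ and in CD8- DCs were set against each other in the same fit. Of the 38 members, 0 were called in the difference of the effects by limma, where 0.559% of all genes were, and 3 members had an unadjusted p under 0.05 (9.15% of all genes). Dkc1 had an effect smaller by 0.34 in CD8+ than in CD8- DCs, with a 95% interval of the difference from -0.63 to -0.06 (adjusted p = 0.391). Utp20 had -0.23 with an interval from -0.44 to -0.01, and Nolc1 had 0.27 with an interval from 0.01 to 0.52. The difference of effects was above 0 for 8 of the 38 members (49.9% of all genes), and its median over the members was -0.07. The calls in CD8- DCs that are missing in CD8+ DCs were thus not shown to differ between the subsets, and the intervals of Srm (-0.52 to 0.25) and Odc1 (-0.21 to 0.55) leave room for a difference of either sign.

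In total DCs, Mst1/2-KO against WT, 2 members were called higher and 0 lower, where 0.316% of all genes were called higher and 0.532% lower. The difference was above 0 for 37 of 38 members (50.7% of all genes), with a median of 0.25 for the members and 0.0028 for all genes. An unadjusted p under 0.05 was reached by 19 members (13.2% of all genes). In 21 members every Mst1/2-KO array lay above every WT array (8.26% of all genes), and in 0 below (5.49%). Srm had 7.46, 7.68 and 7.57 in Mst1/2-KO total DCs, against 6.92, 6.94, 6.98 and 7.13 in WT total DCs, a difference of 0.58 ± 0.10 (SE, limma, adjusted p = 0.0317). Cad had 5.68, 5.68 and 5.85 in Mst1/2-KO total DCs, against 5.13, 5.27, 5.09 and 5.29 in WT total DCs, a difference of 0.54 ± 0.10 (SE, limma, adjusted p = 0.0386). Both calls were lost in each of the 7 fits without 1 array, so that 0 members were called without any single library.

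Just outside the threshold in total DCs stood Dkc1, Polr1a and Polr1b. Dkc1 had 7.20, 7.04 and 6.99 in Mst1/2-KO total DCs, against 6.53, 6.40, 6.49 and 6.71 in WT total DCs (difference 0.55, adjusted p = 0.0515). Polr1a had 8.0, 8.03 and 8.07 in Mst1/2-KO total DCs, against 7.58, 7.66, 7.53 and 7.66 in WT total DCs (difference 0.43, adjusted p = 0.0583). Polr1b had 5.79, 5.75 and 5.86 in Mst1/2-KO total DCs, against 5.28, 5.39, 5.39 and 5.46 in WT total DCs (difference 0.42, adjusted p = 0.0684). The genotypes did not overlap in any of these 3 genes. Ppan differed by 0.45 on the probe set taken and by -0.17 ± 0.15 on its other probe set, and neither was called. Odc1 had 8.30, 8.70 and 8.52 in Mst1/2-KO total DCs, against 8.33, 8.25, 8.79 and 8.10 in WT total DCs. Its arrays overlapped, and the difference of 0.14 was not called. The effects in total DCs and in the sorted subsets were not compared by a test, since the levels belong to different experiments.

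**Figure D3:**
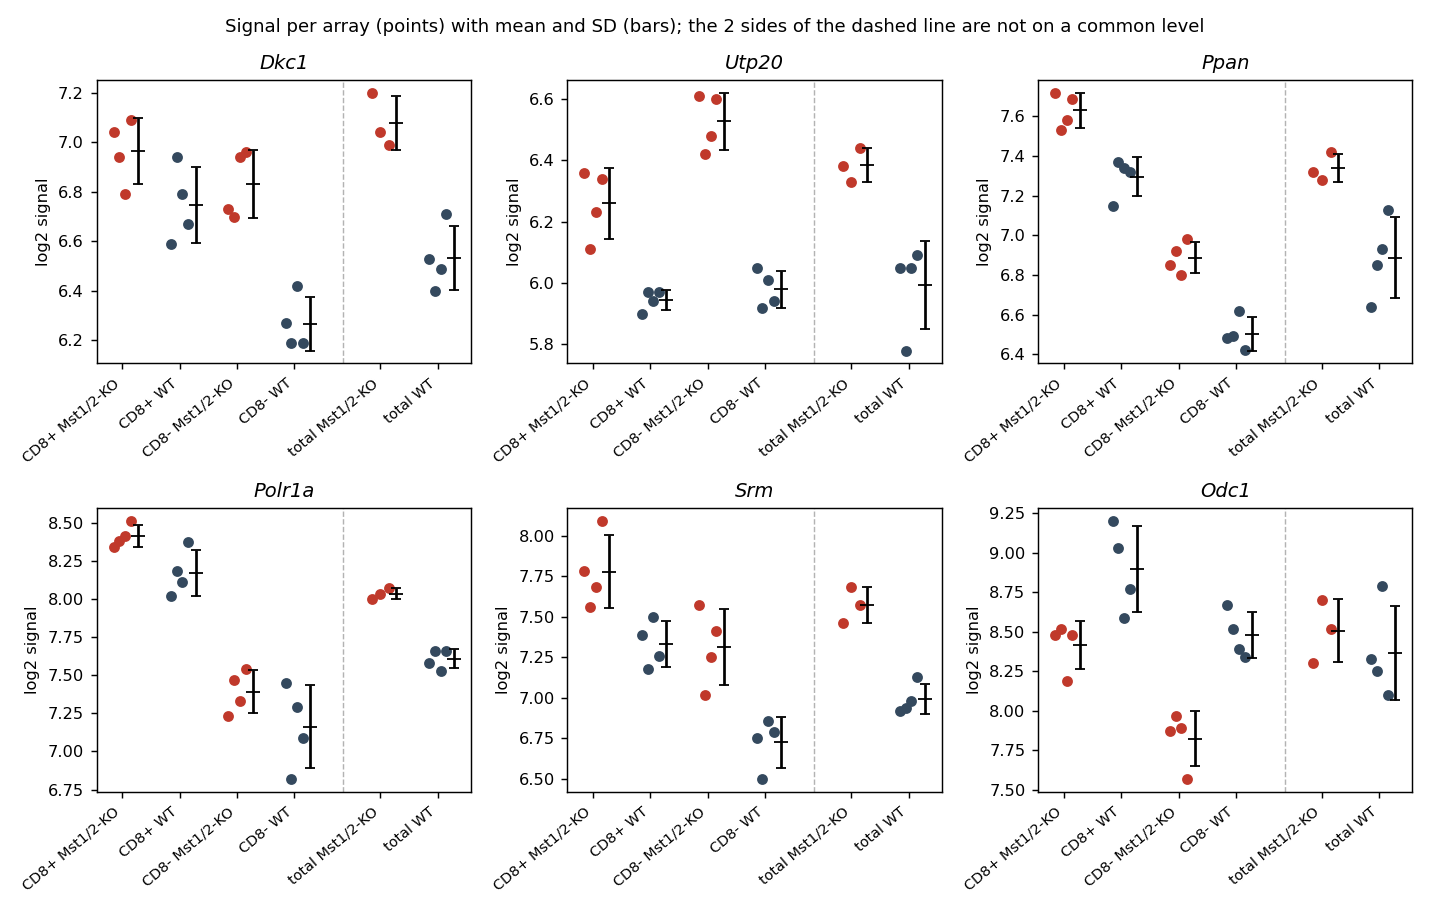
Log2 signal of Dkc1, Utp20, Ppan, Polr1a, Srm and Odc1 on every array (points) of the sorted subsets and of total DCs, with the mean and SD of each group. A dashed line parts the sorted and the total DC arrays, whose levels are not on a common scale. In CD8- DCs the Mst1/2-KO arrays of Dkc1, Utp20, Ppan and Srm lie above all WT arrays and those of Odc1 below.

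Other genes of the same pathways were described from lists of 119 measured genes in all, namely further RNA polymerase I, snoRNP, small subunit and large subunit factors and the exosome, which trims ribosomal RNA. In CD8- DCs, 8 of the 119 were called higher (6.72%, against 3.9% of all genes) and 0 lower, and 99 differed upwards (50.4% of all genes). They were the large subunit factors Sdad1 (0.68), Eif6 (0.37) and Brix1 (0.29), the small subunit factor Wdr3 (0.56), the exosome subunits Exosc2 (0.48), Exosc1 (0.40) and Exosc8 (0.34), and Gar1 (0.45), a partner of dyskerin. In CD8+ DCs 1 of the 119 was called, Nsun5 (0.63), a methyltransferase of the large subunit's RNA, and 100 differed upwards. In total DCs 0 of the 119 were called by limma, 34 had an unadjusted p under 0.05, and 107 differed upwards. Of 12 further polyamine and pyrimidine genes, CD8- DCs had Umps (0.49) and Nme1 (0.39) called higher and Sat1, the enzyme that acetylates polyamines for breakdown and export, called lower (-0.48).

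Of 12 genes of the Myc network, Mxd1, which competes with Myc for their partner Max, was lower in Mst1/2-KO than in WT cells in CD8+ DCs (-1.05), CD8- DCs (-0.89) and total DCs (-0.98), each called. Mxd4, a relative of Mxd1, was called lower in CD8+ DCs (-0.41) and in CD8- DCs (-0.50). Myc itself differed by 0.67 in CD8+ DCs (adjusted p = 0.109), by 0.42 in CD8- DCs (adjusted p = 0.22) and by 0.21 in total DCs (adjusted p = 0.404), and was not called. Of the 12 genes 0 were called higher, and their median difference was 0.05 in CD8+ DCs, 0.06 in CD8- DCs and -0.04 in total DCs. The part of the Myc network in the members' differences was not tested.

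Genes of DNA replication and mitosis also differed upwards between the genotypes. Of 27 measured proliferation genes, 5 were called higher in Mst1/2-KO CD8+ DCs and 23 in Mst1/2-KO CD8- DCs. In total DCs 0 of the 27 were called and all 27 differed upwards. Their array means ran from 7.47 to 8.04 in Mst1/2-KO and from 7.21 to 7.32 in WT CD8+ DCs. In CD8- DCs they ran from 7.76 to 8.12 in Mst1/2-KO and from 7.30 to 7.44 in WT, and in total DCs from 7.67 to 7.89 in Mst1/2-KO and from 7.10 to 7.58 in WT. The means of the 38 members ran from 7.62 to 7.76 in Mst1/2-KO and 7.47 to 7.55 in WT CD8+ DCs, from 7.38 to 7.55 in Mst1/2-KO and 7.18 to 7.33 in WT CD8- DCs, and from 7.61 to 7.68 in Mst1/2-KO and 7.30 to 7.44 in WT total DCs. The part of proliferating cells in the members' differences was not tested.

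RNA of cell type markers in CD8- DCs also differed between the genotypes, which in bulk samples does not tell cell numbers from RNA per cell. Of 10 markers of plasmacytoid DCs, 4 were called higher and 1 lower in Mst1/2-KO CD8- DCs, with array means from 7.96 to 8.31 in Mst1/2-KO and from 7.25 to 7.69 in WT. Cox6a2 differed most, by 3.73, and weighs heavily in these means, while the median difference of the 10 was 0.37. Of 9 CD8+ DC markers 5 were called higher and 1 lower (7.58 to 8.13 in Mst1/2-KO, 7.24 to 7.84 in WT), and of 10 CD8- DC markers 3 were called higher and 5 lower (8.12 to 8.32 in Mst1/2-KO, 8.61 to 8.71 in WT). Of 9 B cell markers 3 were called lower (5.28 to 5.46 in Mst1/2-KO, 5.66 to 5.93 in WT). Of 8 T cell, 10 NK cell, 12 macrophage or monocyte and 10 neutrophil markers, 1 T cell marker was called lower, and 1 macrophage or monocyte marker was called in each direction. In CD8+ DCs 1 of the 38 markers of plasmacytoid, CD8+ and CD8- DCs and B cells was called, Itgam, which was higher. In total DCs 1 of the 38 was called, the CD8- DC marker Cd4, which was lower, and so was the macrophage marker Adgre1 (-1.47, adjusted p = 0.0192). There 8 of the 9 CD8+ DC markers differed upwards, 5 with an unadjusted p under 0.05 (array means 9.43 to 9.50 in Mst1/2-KO, 8.91 to 9.49 in WT). Of the 10 plasmacytoid DC markers 8 differed downwards in total DCs, 6 of the 10 having an unadjusted p under 0.05 (6.61 to 7.61 in Mst1/2-KO, 6.99 to 7.84 in WT). The array means of the 10 CD8- DC markers ran from 6.45 to 6.86 in Mst1/2-KO and from 7.0 to 7.38 in WT. The mean of 4 sex-linked genes was lower in Mst1/2-KO than in WT in CD8+ DCs (4.87 to 5.55 against 5.44 to 5.73) and in CD8- DCs (4.93 to 5.45 against 5.58 to 5.73), with none of the 4 called. An unadjusted p under 0.05 (limma) was reached by 1 of the 4 in CD8+ DCs (10.6% of all genes) and by 3 in CD8- DCs (18.1%). In CD8- DCs, 2 of the 4 had every Mst1/2-KO array below every WT array (5.46% of all genes). The differences of the 4 genes ran from -0.56 to -0.0069 in CD8+ DCs and from -0.81 to 0.02 in CD8- DCs. Their mean does not give the sex of the mice. The part of these markers and of the sex-linked genes in the members' differences was not tested.

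CD8+ DCs were compared with CD8- DCs within each genotype. In WT mice 15 of 38 members were called higher in CD8+ DCs and 0 lower, where 11% of all genes were called higher and 10% lower. The difference was above 0 for 34 members (56.1% of all genes), with a median of 0.22 for the members and 0.025 for all genes. In 15 members every CD8+ array lay above every CD8- array of WT mice (12.2% of all genes), and in 1, Heatr1, below (10.2%). In Mst1/2-KO mice 11 members were called higher in CD8+ DCs and 3 lower, where 9.93% of all genes were called higher and 9.3% lower. The difference was above 0 for 28 members (56.2% of all genes), with a median of 0.14 and 0.0263 for all genes. There 11 members had every CD8+ array above every CD8- array (12% of all genes), and the 3 members called lower had every CD8+ array below (9.95%). The 3 members called lower in Mst1/2-KO mice were Utp20 (-0.27), Nop16 (-0.26) and Heatr1 (-0.22).

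Polr1a differed most. It had 8.34, 8.38, 8.41 and 8.51 in CD8+ DCs, against 7.23, 7.47, 7.33 and 7.54 in CD8- DCs of Mst1/2-KO mice, and 8.02, 8.18, 8.11 and 8.37 in CD8+ DCs, against 7.45, 6.82, 7.29 and 7.09 in CD8- DCs of WT mice. The subsets did not overlap in either genotype, and the difference was 1.01 ± 0.12 in both (SE, limma, adjusted p = 3.39e-06 in Mst1/2-KO and 3.52e-06 in WT), or 2.02-fold in Mst1/2-KO and 2.01-fold in WT mice. Polr1b was called in WT (0.38) and not in Mst1/2-KO mice (0.18, adjusted p = 0.26), and the difference between the genotypes was not called either. Polr1c differed by 0.10 in Mst1/2-KO and 0.12 in WT mice without a call.

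Among the large subunit factors, Ppan was higher in CD8+ DCs by 0.74 in Mst1/2-KO and 0.79 in WT mice, and Pes1 by 0.68 in Mst1/2-KO and 0.73 in WT mice. Pes1 had 8.56, 8.49, 8.54 and 8.51 in CD8+ DCs, against 7.97, 7.83, 7.73 and 7.83 in CD8- DCs of Mst1/2-KO mice, and 8.39, 8.33, 8.30 and 8.35 in CD8+ DCs, against 7.71, 7.50, 7.58 and 7.66 in CD8- DCs of WT mice. The other probe set of Ppan was called as well, with 0.58 in Mst1/2-KO and 0.76 in WT mice. Nop2 differed by 0.44 in Mst1/2-KO and 0.63 in WT mice, and Wdr12, the partner of Pes1, by 0.42 in Mst1/2-KO and 0.47 in WT mice, all called. Bop1, the third member of that complex, was called in neither genotype.

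Of the small subunit factors, Nop14 had 7.76, 7.73, 7.74 and 7.93 in CD8+ DCs, against 7.25, 6.98, 6.93 and 7.12 in CD8- DCs of Mst1/2-KO mice. In WT mice it had 7.50, 7.73, 7.60 and 7.51 in CD8+ DCs, against 6.93, 6.85, 7.09 and 6.82 in CD8- DCs. Its difference was 0.72 in Mst1/2-KO and 0.66 in WT mice, called in both. Wdr43 and Wdr75, which join RNA polymerase I transcription to processing, were called higher in both genotypes, Wdr43 by 0.43 in each and Wdr75 by 0.36 in Mst1/2-KO and 0.35 in WT mice. Nob1, the nuclease that makes the last cut of the small subunit's RNA, was called higher in WT mice (0.42), and so was Utp4 (0.28). Utp20, Nop16 and Heatr1 ran the other way in both genotypes. In WT mice, where they were not called, the differences were -0.04 for Utp20, -0.16 for Nop16 and -0.20 for Heatr1.

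Of the remaining members, Srm was higher in CD8+ DCs by 0.47 in Mst1/2-KO and 0.60 in WT mice, Odc1 by 0.59 in Mst1/2-KO and 0.42 in WT mice and Mybbp1a by 0.29 in Mst1/2-KO and 0.44 in WT mice, all called. Dkc1 was called higher in WT mice (0.48) and differed by 0.14 in Mst1/2-KO mice. Ncl, Npm1 and Ddx21 were called in neither genotype. Gnl3, a nucleolar GTP-binding protein, was not called without pairing (0.34 in WT mice, adjusted p = 0.0625). The replicate number was also used as a block, on the assumption that it pairs the arrays of WT mice. With this block, Gnl3 (adjusted p = 0.014), Rrp12 (0.38, adjusted p = 0.0094), Cad (0.29, adjusted p = 0.0228) and Nop58 (0.22, adjusted p = 0.0408) were called higher by limma in CD8+ DCs of WT mice as well. Of the 15 calls in WT mice 12 were kept in each of the 8 fits without 1 array. Odc1 was lost without CD8+ replicates 1 or 2 or CD8- replicates 3 or 4, Utp4 without CD8+ replicates 1 or 3 or CD8- replicates 2 or 3, and Wdr75 without CD8+ replicate 4 or CD8- replicates 1 or 2. Of the 14 calls in Mst1/2-KO mice 8 were kept in each fit. Utp20 was lost without CD8+ replicate 2, Nop16 without CD8+ replicates 1 or 2 or CD8- replicates 3 or 4, and Heatr1 in 6 of the 8 fits, all but those without CD8+ replicate 4 or CD8- replicate 1. Srm was lost without CD8+ replicate 4 or CD8- replicate 2, Wdr75 without the same arrays, and Mybbp1a without CD8+ replicates 3 or 4 or CD8- replicates 1 or 2.

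**Figure D4:**
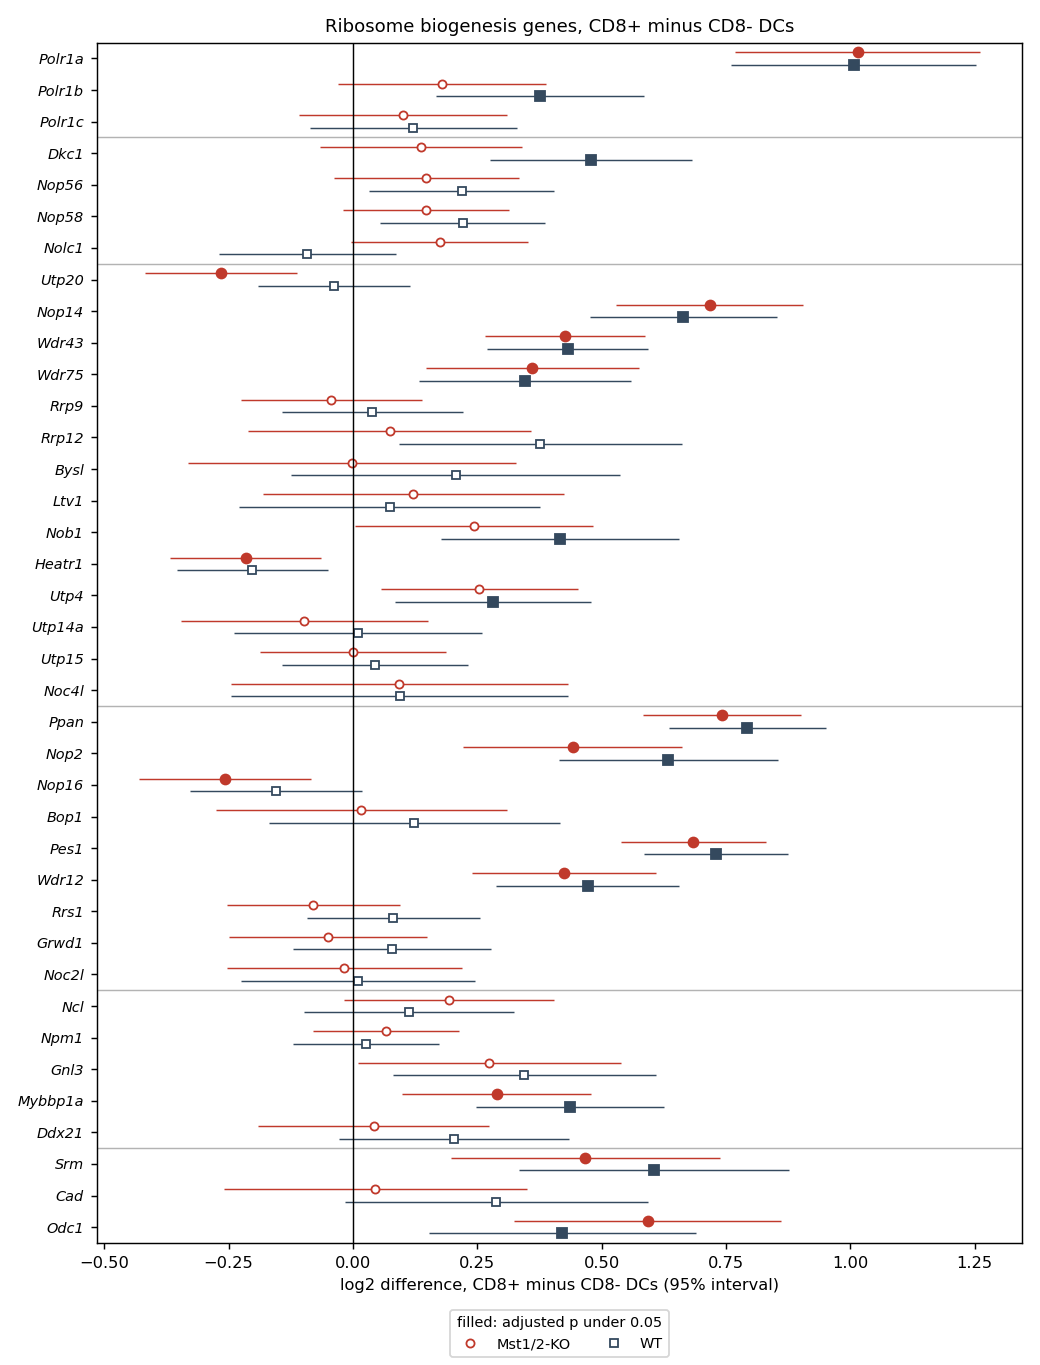
Difference of log2 signal, CD8+ minus CD8- DCs, for each member in Mst1/2-KO and in WT mice, with 95% intervals from limma (filled points have an adjusted p under 0.05). Polr1a has the largest difference in both genotypes, 1.01, and Utp20, Nop16 and Heatr1 lie left of 0 in both.

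Of the 119 further genes, 13 were called higher and 5 lower in CD8+ than in CD8- DCs of Mst1/2-KO mice, and 23 higher and 5 lower in WT mice. In Mst1/2-KO mice these were 10.9% higher and 4.2% lower, against 9.93% and 9.3% of all genes, and in WT mice 19.3% higher and 4.2% lower, against 11% and 10% of all genes. Sdad1, a large subunit factor by its yeast counterpart, was higher by 1.62 in Mst1/2-KO and by 2.11 in WT mice. Ruvbl1, a helicase that helps to assemble snoRNPs, was higher by 0.70 in Mst1/2-KO and 0.79 in WT mice, and Rpf2, a factor of large subunit assembly, by 0.69 in Mst1/2-KO and 0.70 in WT mice. In the Myc network, Mycl was higher in CD8+ DCs by 1.52 in Mst1/2-KO and 1.49 in WT mice. Of the 27 proliferation genes 0 were called higher and 3 lower in Mst1/2-KO mice, and 1 higher and 3 lower in WT mice.

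Markers of other cell types also differed between the sorted subsets. Of 8 T cell markers 6 were called lower in CD8+ than in CD8- DCs of Mst1/2-KO mice (array means 4.25 to 4.36 in CD8+, 4.88 to 5.28 in CD8- DCs) and 7 in WT mice (4.33 to 4.47 in CD8+, 4.93 to 5.60 in CD8- DCs). Of 10 NK cell markers 5 were called lower in Mst1/2-KO mice (5.26 to 5.40 in CD8+, 6.04 to 6.60 in CD8- DCs) and 7 in WT mice (5.24 to 5.32 in CD8+, 6.14 to 6.97 in CD8- DCs). Of 12 macrophage or monocyte markers 9 were called lower in each genotype (6.78 to 7.25 in CD8+, 8.16 to 8.44 in CD8- DCs of Mst1/2-KO mice, and 6.82 to 7.06 in CD8+, 7.92 to 8.29 in CD8- DCs of WT mice). Of 10 plasmacytoid DC markers 6 were called lower and 0 higher in Mst1/2-KO mice and 4 lower and 1 higher in WT mice, and of 9 B cell markers 3 were called lower and 1 higher in Mst1/2-KO mice and 4 lower and 1 higher in WT mice. Some of these genes are also expressed by DCs. Their part in the members' differences between subsets was not tested.

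In experiment 1, anti-CD40-stimulated Rag1-KO p38-KO DCs were compared with anti-CD40-stimulated Rag1-KO DCs. None of the 38 members was called by limma, as was none of the 22180 genes (0%), and 8 members had an unadjusted p under 0.05 (8.41% of all genes). The difference was above 0 for 14 members (50.8% of all genes), with a median of -0.08 for the members and 0.0013 for all genes. Of the 119 further genes of the same pathways, 64 differed upwards and 55 downwards, with a median of 0.0050. In 3 members every Rag1-KO p38-KO array lay above every Rag1-KO array (3.89% of all genes), and in 6 below (3.6%). Odc1 had the smallest p, with 8.31, 7.85 and 8.09 in Rag1-KO p38-KO DCs, against 8.64, 8.61, 8.52 and 8.82 in Rag1-KO DCs. Its groups did not overlap, and the difference was -0.56 ± 0.12 (SE, limma, adjusted p = 0.387). Ddx21, an RNA helicase of the nucleolus, had 9.45, 9.37 and 9.50 in Rag1-KO p38-KO DCs, against 9.74, 9.63, 9.59 and 9.66 in Rag1-KO DCs (difference -0.22, adjusted p = 0.433). Bysl differed by -0.32 (adjusted p = 0.506), with 5.64, 5.65 and 5.96 in Rag1-KO p38-KO DCs, against 6.02, 5.99, 6.15 and 6.13 in Rag1-KO DCs.

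The values of experiment 1 held exact repeats. In 7909 of the 22180 genes (35.7%), 3 or more of the 7 arrays had the same value to 4 decimals, against 0.0316% of genes in the sorted arrays, 0.0225% in total DCs and 0% in experiment 2. Among the members, 9 had 3 or more equal values in experiment 1, for example Cad with 5 arrays at 5.42 and Utp20 with 5 arrays at 6.19. Their part in the spread, and so in the p-values, was not tested. All 10 neutrophil markers were lower in Rag1-KO p38-KO than in Rag1-KO DCs (array means 3.77 to 5.22 against 5.64 to 6.70), and none was called. Their part in the members' values was not tested.

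Experiment 2 had lone arrays in 2 of its 3 groups. Its tests took their estimate of the spread from experiments 1 and 2 together (11 arrays), assuming that a lone array varies like the others. The exact repeats of experiment 1, found in Grwd1, Utp20 and Cad among other members, enter this spread. The part of these repeats in the p-values of experiment 2 was not tested. Of the 38 members 0 were called between anti-CD40-stimulated and non-stimulated Rag1-KO DCs (0.0361% of all genes), and 3 had an unadjusted p under 0.05 (13.1% of all genes). The difference was above 0 for 24 members (48.1% of all genes), with a median of 0.05. Grwd1, a chaperone of a large subunit protein, had 5.41 and 5.56 in stimulated DCs, against 5.14 in non-stimulated DCs (difference 0.35, adjusted p = 0.283). Ppan had 7.10 and 7.22 in stimulated DCs, against 6.89 in non-stimulated DCs. Its difference was 0.28 on the probe set taken and -0.04 on its other probe set. Utp20 had 6.17 and 6.31 in stimulated DCs, against 5.98 in non-stimulated DCs (0.26, adjusted p = 0.338). Odc1 was 8.57 and 8.58 in stimulated and 8.62 in non-stimulated DCs. Of the 119 further genes, 73 differed upwards and 46 downwards between stimulated and non-stimulated Rag1-KO DCs, with a median of 0.07. Between stimulated Rag1-KO and WT DCs, 23 of the 119 differed upwards and 96 downwards, with a median of -0.10.

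Between anti-CD40-stimulated Rag1-KO and WT DCs 0 members were called (0.365% of all genes), 3 had an unadjusted p under 0.05 (14% of all genes), and 19 of 38 differed upwards (48.3% of all genes). Cad had 5.19 and 5.28 in Rag1-KO DCs, against 5.51 in WT DCs (difference -0.28, adjusted p = 0.217). Ddx21 had 9.45 and 9.50 in Rag1-KO DCs, against 9.75 in WT DCs (-0.28, adjusted p = 0.255). Dkc1 had 6.85 and 6.47 in Rag1-KO DCs, against 7.09 in WT DCs (-0.43, adjusted p = 0.318), and its 2 Rag1-KO arrays lay further apart than the nearer one from WT. All 10 neutrophil and all 10 NK cell markers were higher, and all 9 B cell markers lower, in Rag1-KO than in WT DCs, with 3 of the B cell markers called. Of 8 T cell markers, Cd3e was called lower (-1.21, adjusted p = 0.0159), and 4 of the 8 differed downwards. Their part in the members' values was not tested.

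**Figure D5:**
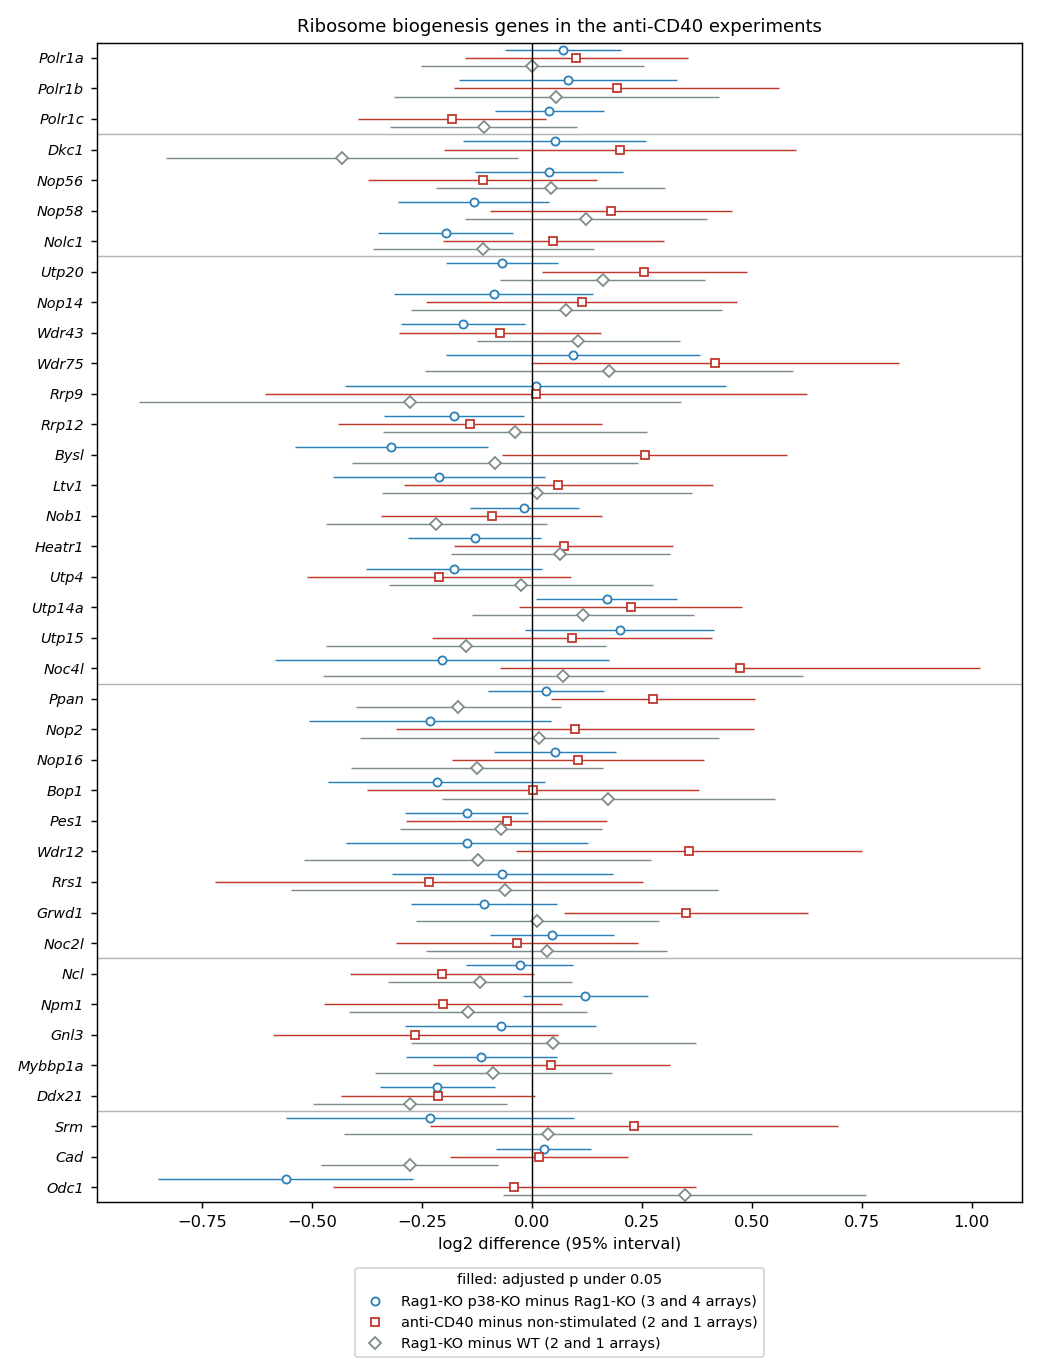
Difference of log2 signal for each member between Rag1-KO p38-KO and Rag1-KO DCs (experiment 1), and in experiment 2 between anti-CD40-stimulated and non-stimulated Rag1-KO DCs and between Rag1-KO and WT DCs, with 95% intervals from limma. No point has an adjusted p under 0.05, and the points lie on both sides of 0 in each comparison.

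Over the 5 comparisons of the sorted subsets and total DCs between genotypes or subsets, 22 of the 38 members were called at least once, as were 27.7% of all genes. In the fits without a replicate block, the 16 others were Nop56, Nolc1, Rrp9, Bysl, Ltv1, Utp14a, Utp15, Noc4l, Bop1, Grwd1, Noc2l, Ncl, Npm1, Gnl3, Ddx21 and Polr1c. Ncl had 10.01 to 10.17 in Mst1/2-KO and 10.04 to 10.42 in WT CD8- DCs, and 10.19 to 10.38 in Mst1/2-KO and 10.07 to 10.54 in WT CD8+ DCs, so the genotypes overlapped in both subsets. Noc4l, a small subunit factor, spread from 6.27 to 7.07 over the 4 Mst1/2-KO arrays and from 6.33 to 6.48 over the WT arrays of CD8- DCs. Noc2l, a large subunit factor by its yeast counterpart, ran from 7.96 to 8.54 in Mst1/2-KO and from 7.84 to 8.32 in WT total DCs, a wide overlap.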

How the data were processed

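Dendritic cells were sorted from mouse spleen, and, per the labels' protocols, the RNA was amplified, labelled with biotin and hybridised. The authors deposited a table of log2 values of 41155 probe sets on 34 arrays, normalized by the authors (RMA and Partek 6.6 are named in the submitters' processing notes). Its log2 values run from 0.57 to 13.19, and the array medians from 4.11 to 4.20. Within an experiment label, 100.0% of probe sets share their digits beyond the fifth decimal, and 0.01% do so across labels, so each probe set carries a constant per experiment. The number of arrays per group limits the precision.

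Of the probe sets, 23521 have exactly 1 gene symbol, 1814 have several and 15820 none in the platform annotation. The probe set with the highest mean over all arrays stood for a gene, which gave 22180 genes. A model with 1 mean per group was fitted to all genes (limma 3.58.1, R 4.3.3), and p-values adjusted over all genes. The 16 sorted arrays shared a fit, total DCs and experiment 1 used 7 arrays each, and experiment 2 pooled its spread with experiment 1. Members called with the largest change (up to 5 in each direction) are given in full, or, with fewer than 2 calls, the 3 with the smallest p, and of each other list up to 3 called genes. The members and all gene lists were chosen with earlier results of these data known.

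The labels do not say whether replicate numbers mark shared animals, and the main fits used no pairing. Same-numbered WT CD8+ and CD8- arrays deviated from their group means with correlations of 0.13 to 0.34 and were taken as pairs. In Mst1/2-KO mice these correlations were 0.09 to 0.21, and the other groups reached at most 0.16. Those numbers were not taken as pairs, though the Mst1/2-KO range overlaps that of WT mice, so the choice is uncertain. The alternatives were quantile and cyclic loess normalization, a filter on dim genes, an intensity trend, the mean of a gene's probe sets, fits to only the arrays compared, the replicate number as a block, and leaving out each array.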

Additional observations from a re-analysis of the deposited data

Results flagged for a closer look

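Within each group of 4 arrays, a value of a member was picked out where its gap to the nearest other array, divided by the group's range, passed Dixon's critical value. This held for 27 of 228 sets of values, where chance picks about 1 in 20.

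In Mst1/2-KO CD8+ DCs, replicate 2 was highest for Noc2l (8.40 against 8.10 to 8.15 on the others). Replicate 3 was lowest for Ltv1 (8.13 against 8.44 to 8.48 on the others) and Odc1 (8.19 against 8.48 to 8.52 on the others). Replicate 4 was highest for Cad (6.12 against 5.41 to 5.48 on the others) and Nop14 (7.93 against 7.73 to 7.76 on the others). Replicate 4 was lowest for Npm1 (11.10 against 11.26 to 11.29 on the others). In WT CD8+ DCs, replicate 1 was lowest for Noc2l (7.81 against 8.12 to 8.18 on the others). In Mst1/2-KO CD8- DCs, replicate 3 was highest for Wdr12 (6.37 against 6.26 to 6.27 on the others). Replicate 4 was highest for Nob1 (7.18 against 6.84 to 6.90 on the others).

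In WT CD8- DCs, replicate 1 was highest for Ncl (10.42 against 10.04 to 10.10 on the others), Gnl3 (8.89 against 8.33 to 8.41 on the others), Ltv1 (8.60 against 7.88 to 7.97 on the others) and Ddx21 (9.65 against 9.28 to 9.31 on the others). Replicate 3 was highest for Cad (5.27 against 4.99 to 5.03 on the others) and Rrs1 (6.20 against 5.99 to 6.02 on the others). In WT total DCs, replicate 1 was lowest for Nop2 (6.41 against 6.94 to 7.01 on the others) and Ddx21 (9.27 against 9.48 to 9.51 on the others). Replicate 2 was lowest for Utp20 (5.78 against 6.05 to 6.09 on the others). In anti-CD40-stimulated Rag1-KO DCs of experiment 1, replicate 1 was lowest for Polr1b (5.25 against 5.58 to 5.63 on the others). Replicate 2 was highest for Utp4 (7.45 against 7.19 to 7.21 on the others). Replicate 2 was lowest for Nop16 (7.47 against 7.61 on the others). Replicate 3 was lowest for Cad (5.30 against 5.42 on the others). Replicate 4 was highest for Utp20 (6.28 against 6.19 on the others), Nop56 (8.58 against 8.58 on the others), Nop58 (9.17 against 9.01 to 9.03 on the others), Polr1c (8.42 against 8.37 to 8.38 on the others) and Grwd1 (5.70 against 5.49 on the others). In WT CD8- DCs 4 of the 6 picked values were highs of replicate 1, for Ncl, Gnl3, Ltv1 and Ddx21, none of which was called between genotypes. In experiment 1 the picked values of Utp20, Cad, Nop56, Nop16 and Grwd1 stand against arrays that hold equal values to 4 decimals or nearly so, and the gap is then the whole range. The part of these repeats in the choice of these values was not tested.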

How the results depend on the processing

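Among the called members with the largest change, up to 5 in each direction per comparison, none reversed its direction. The directions of the other called members were not compared between settings. In CD8+ DCs, Mst1/2-KO against WT, the 2 called members became 0 with an intensity trend or with only the 8 arrays compared and 1 with the mean of a gene's probe sets, and leaving out 1 array gave 0 to 2. In CD8- DCs, Mst1/2-KO against WT, the 14 calls ranged from 7 to 15 when 1 array was left out, and 10 to 16 under the other settings. Between CD8+ and CD8- DCs of Mst1/2-KO mice the 14 calls became 9 with only the 8 arrays compared. In total DCs the 2 calls became 5 on genes above the median gene, 4 with an intensity trend and 0 when any 1 array was left out. The causes were not tested. In experiment 2, Rag1-KO against WT DCs, the members' median difference of -0.01 became 0.0488 under cyclic loess normalization and ranged from -0.06 to 0.03 when 1 array was left out.

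With the replicate number as a block, 3 members were called in CD8+ DCs between genotypes (Utp20, Srm and Odc1, with Ppan at an adjusted p = 0.0679), 14 in CD8- DCs (with Pes1 in place of Rrp12), 0 in total DCs and 0 in experiment 1. The block gave 15 calls between CD8+ and CD8- DCs in Mst1/2-KO mice, with Gnl3 (adjusted p = 0.0472) added. In WT mice, where the numbers were taken as pairs, it gave 19, the 15 called without it and Cad, Gnl3, Nop58 and Rrp12. The correlations of same-numbered arrays were -0.07 to 0.09 between the genotypes in CD8+ DCs, 0.01 to 0.09 in CD8- DCs, 0.05 to 0.13 in total DCs and 0.09 to 0.16 in experiment 1.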
